A study of Mus musculus with 12 samples.

Results

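Zinc finger protein genes named Zfp and a number were followed in mouse cells of the Th17 type, interleukin 17-producing CD4 T cells. The cells had 4 h with an inhibitor of either of 2 signalling proteins or with both, or had no inhibitor. The members were the protein-coding genes of this name pattern, Zfp36 left out, with a mean raw read count of 500 or more over the 3 untreated libraries. There were 196 such genes among 364 of the name pattern and 55401 genes in the count table. The members were thus chosen by their measured count in untreated cells, so their level there is a description, and every contrast with untreated cells shares those counts. Contrasts between treated groups do not compare against these counts, although the gene filter, scaling and estimate of spread were shared by all groups.

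Most proteins of this kind carry C2H2 zinc fingers, small folds held together by a zinc ion between 2 cysteines and 2 histidines, and a run of fingers reads a run of DNA bases. Many also carry a KRAB domain, which recruits the co-repressor Trim28 and through it the histone methyltransferase Setdb1 and heterochromatin proteins, and which is known above all for keeping retrotransposons silent. KRAB genes arose by repeated local duplication and sit in chromosomal clusters. Others of the same name are RNA-binding proteins, ribosome factors or ubiquitin ligases that share only the finger.

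The samples were wild-type Th17 cells from lymph nodes, differentiated from naive T cells per the labels. The groups were None (no inhibitor), Kira8, an inhibitor of the endoplasmic reticulum stress sensor IRE1alpha, Stattic, an inhibitor of the transcription factor STAT3, and Kira8+Stattic, with 3 libraries each. The 4 h of treatment is stated for the inhibitor libraries only, and no time is stated for None. The labels do not say whether None received a solvent, or whether replicates were separate cultures or animals, so p-values measure the spread between these libraries, which may be technical.

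In 2 of the 12 libraries the total count was lower and the mitochondrial share higher than in the others. Kira8 replicate 2 held 19.8 M counts with 61.5% from mitochondrial genes, and Stattic replicate 2 held 9.28 M with 10.7%. The other 10 libraries held 51.7 to 85.9 M counts with 3.38 to 5.22% mitochondrial. The 2 were left out on measures that do not use the members, with earlier results of these data known. As a description, 33 and 53 members were at 0 there. The members made up 0.0855% and 0.274% of counts, against 0.576 to 0.909% in the other 10 libraries. Values below come from a fit of those 10 libraries (None n = 3, Kira8 n = 2, Stattic n = 2, Kira8+Stattic n = 3), and the fit of all 12 is given with them. The cells' labels were compared with marker genes fixed by name: the summed level of 8 Th17 and CD4 T cell markers was 1329 to 3308 CPM (counts scaled to a common library size) in None and 909 to 1066 in the treated libraries. In that sum Il17a had 258 to 1439 CPM in None and 130 to 171 in the treated libraries, Cd4 had 364 to 429 and 356 to 449, and Il1r1 had 7.54 to 10.2 in None and 16.7 to 18.2 with Stattic. The sum of 4 B cell markers was 104 to 122 CPM in None, 28.6 to 36.1 with Kira8, 11.1 to 17.4 with Stattic and 12.5 to 26.5 with both. The 4 markers of CD8 T and NK cells summed to 96.6 to 182 CPM in None and to 19.6 to 50.4 in the treated libraries. Most of that sum was Cd8a, with 83.8 to 155 CPM in None and 13.6 to 34.1 in the treated libraries. Of the NK genes, Ncr1 was at 0 in 9 of 10 libraries. Klrb1c was low but went the other way, with 0.0632 to 0.286 CPM in None, 0.545 to 2.85 with Stattic and 0.710 to 1.37 with both. The 4 myeloid markers, mostly Lyz2, summed to 24.1 to 39.5 CPM in None, 52.7 to 54.9 with Kira8, 20.6 to 34.6 with Stattic and 14.4 to 84.7 with both. In bulk RNA, fewer cells of a type and less RNA per cell cannot be told apart. The part of these markers in the results was not tested.

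The finger that names the family is shown for the coding sequence of 4 members on which the results turn, Zfp202 and Zfp329, which fell most with Stattic, Zfp948, which rose in every treated group, and Zfp260, which was higher with Kira8 and not called with Stattic or with both. They were chosen after their values were seen. Each line is the last finger of the protein in the GENCODE M21 transcripts (build mm10), with the codons of the 2 cysteines and 2 histidines in capitals.
Zfp202: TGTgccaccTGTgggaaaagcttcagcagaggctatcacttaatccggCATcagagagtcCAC
Zfp329: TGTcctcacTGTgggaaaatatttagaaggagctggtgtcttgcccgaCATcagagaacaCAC
Zfp948: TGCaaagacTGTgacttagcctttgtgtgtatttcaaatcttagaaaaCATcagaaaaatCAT
Zfp260: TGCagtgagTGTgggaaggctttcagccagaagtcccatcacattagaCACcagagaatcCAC
Each stretch is 63 bases of coding exon. That of Zfp202 lies at chr9:40211786-40211848 on the plus strand in exon 7 of 7. That of Zfp329 is at chr7:12810054-12810116 on the minus strand in exon 2 of 2, that of Zfp948 at chr17:21588450-21588512 (plus, exon 6 of 6) and that of Zfp260 at chr7:30105829-30105891 (plus, exon 3 of 3).

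Over all members the number of C2H2 matches in the longest coding transcript ran from 0 to 36, with a median of 10. Of the 196 proteins 100 had 10 or more matches, 63 had 5 to 9, 30 had 1 to 4, and 3 had none (Zfp330, Zfp703 and Zfp839). Zfp142 had the 36. A KRAB A box match was found in 91 proteins and not in 105, and a diverged box would be missed by the pattern. Members with a KRAB match had a median of 12 fingers and a coding GC content of 42.0%, against 7 fingers and 55.0% without. For 21 members over 20% of 50-base stretches also occurred in another gene, so reads could be split between copies, and 52 members overlapped an exon of an antisense gene, whose reads cannot be separated if counting ignored strand.

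Per kilobase of exon the most abundant member in None was Zfp207, a spindle assembly factor, at 49.6 CPM per kb. Next came Zfp869 at 32.5, the RNA-binding protein gene Zfp106 at 26.6, Zfp598 at 24.0 and Zfp706 at 22.4 CPM per kb. Zfp445, Zfp52, Zfp281, Zfp740 and Zfp91 followed between 21.2 and 18.9 CPM per kb, so neighbours in this order differed little. With Stattic, described next over all members, Zfp869 and Zfp52 were higher in this group of 10 (log2 1.01 ± 0.19 and 1.26 ± 0.17), Zfp106, Zfp598 and Zfp445 were lower, and Zfp207, Zfp706, Zfp740 and Zfp91 were not called. Zfp281 was called higher by a narrow margin. At the count minimum, Zfp599, Zfp821 and Zfp951 lay just outside with 479, 488 and 493 counts, and Zfp938, Zfp54 and Zfp239 just inside with 502.7, 504.3 and 506.7.

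With Stattic alone, 96 of the 196 members were lower than in None and 33 were higher, with 67 not called (edgeR quasi-likelihood test, Benjamini-Hochberg adjusted p under 0.05 over 21239 genes). Of all genes tested 18.9% were called lower and 20.1% higher, and of the 8989 protein-coding genes with the same count minimum 35.8% were lower and 20.0% higher, so the members' share of lower calls, 49.0%, lay above both. These protein-coding genes are called equally abundant below. They share only the count minimum and were not matched to the members on level. The median log2 change of the members was -0.60, that of the equally abundant genes -0.23 and that of all tested genes 0.08. Of the 96 members called lower 63 fell at least 2-fold, and of the 33 called higher 19 rose at least 2-fold. The 2-fold share was not counted for other genes. The lower quartile of the log2 change was -1.20 for members and -0.82 for the equally abundant genes. The upper quartile was -0.02 and 0.38. Scaling by library size alone moved the median of all genes to -0.08 and the members' counts to 116 lower and 27 higher.

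**Figure D1:**
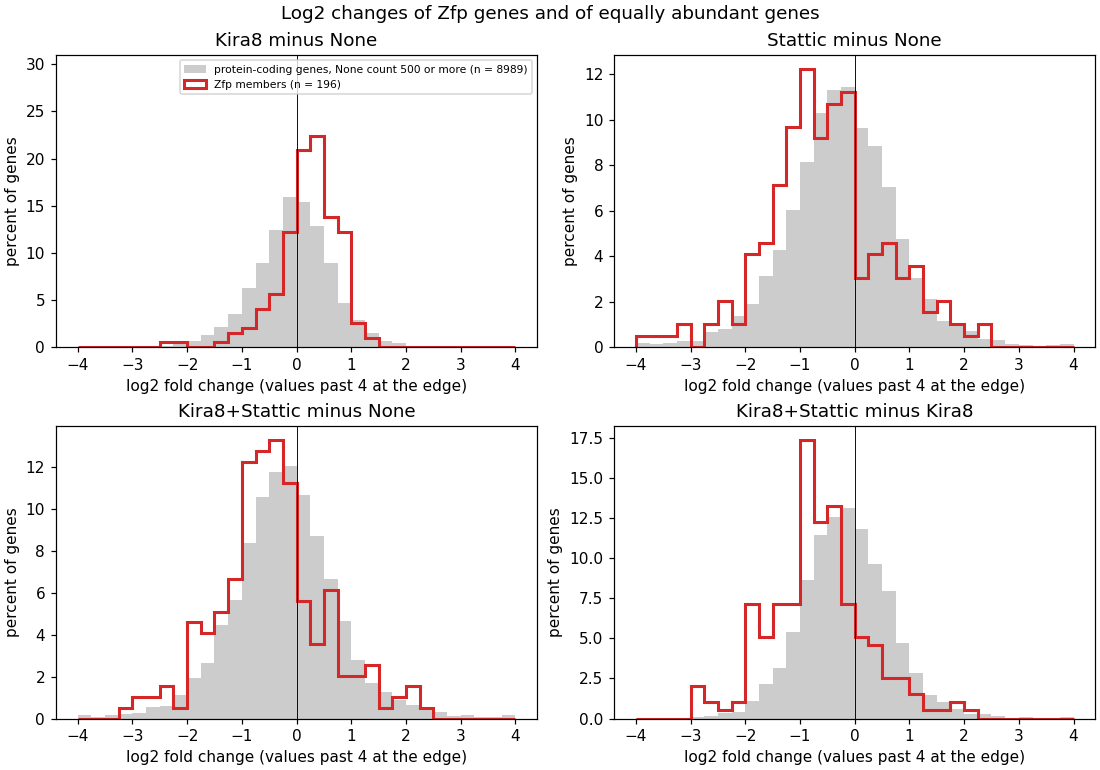
Histograms of the log2 fold change (x axis) as percent of genes (y axis) for the 196 Zfp members (red outline) and for 8989 protein-coding genes of the same count minimum (grey) in 4 comparisons. The members sit to the right of the grey distribution in Kira8 minus None (medians 0.28 and -0.03) and to its left in the 3 comparisons that contain Stattic (median -0.60 against -0.23 with Stattic alone).

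The largest fall was that of Zfp202 (chr9:40192316-40213604, plus strand), a DNA-binding repressor with 8 finger matches. Its level was 8.84, 16.4 and 11.7 CPM in None and 0.840 and 0.906 CPM with Stattic. Every None library was above both Stattic libraries, and the change was a 14.1-fold fall (log2 -3.82 ± 0.41 SE, edgeR adjusted p = 2.9e-05). The largest changes named each way against None, here and below, were picked among calls without overlapping libraries. That separation was thus fixed by the choice. Zfp329 (chr7:12804977-12818858, minus strand) went from 12.6, 28.5 and 29.4 CPM in None to 1.78 and 2.16 CPM, an 11.9-fold fall (log2 -3.58 ± 0.35, adjusted p = 1.63e-05). The groups did not overlap, although None replicate 1 was below the other None libraries. Zfp799, a KRAB member with 16 fingers, had 7.93, 9.03 and 9.81 CPM in None and 0.840 and 1.02 CPM with Stattic (log2 -3.26 ± 0.39). Zfp933, another KRAB member, had 14.4, 18.8 and 19.7 CPM in None and 2.11 and 1.89 CPM with Stattic (log2 -3.14 ± 0.26), again with no overlap. Zfp770, with 10 fingers, fell by 3.02 on the log2 scale. Zfp239 fell by 2.56, Zfp961 by 2.52 and Zfp595 by 2.42. Of these 8, only Zfp961 lost its call when a library was left out (without Stattic replicate 1, Stattic replicate 3, None replicate 2 or None replicate 3 in turn, highest adjusted p = 0.139), and Zfp961 overlaps the antisense gene Cyp4f18. Zfp799 overlaps the antisense gene Gm26693, and Zfp595 the same-strand gene Gm28044.

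Among the rises, Zfp703 (chr8:26977325-26981461, plus strand), a transcriptional co-repressor without a C2H2 match, had 33.6, 36.7 and 30.6 CPM in None and 164 and 163 CPM with Stattic. The Stattic libraries stood together above all None libraries, a 4.87-fold rise (log2 2.28 ± 0.15, edgeR adjusted p = 1.71e-06). Zfp948 (chr17:21567008-21588699, plus strand), a KRAB member with 15 fingers, had 23.5, 28.2 and 23.5 CPM in None and 105 and 138 CPM with Stattic, a 4.84-fold rise (log2 2.27 ± 0.19, adjusted p = 4.98e-06). Its 2 Stattic libraries were further apart than its None libraries and still above them all. Zfp654 (chr16:64780347-64851652, minus strand) had 37.5, 50.9 and 48.8 CPM in None and 165 and 252 CPM with Stattic (log2 2.19 ± 0.20). Zfp597, Zfp655, Zfp395, Zfp467 and Zfp367 followed with log2 rises of 1.93, 1.77, 1.70, 1.56 and 1.55. Each of these 8 calls held when any 1 library was left out. Zfp703, Zfp597 and Zfp367 overlap antisense genes.

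**Figure D2:**
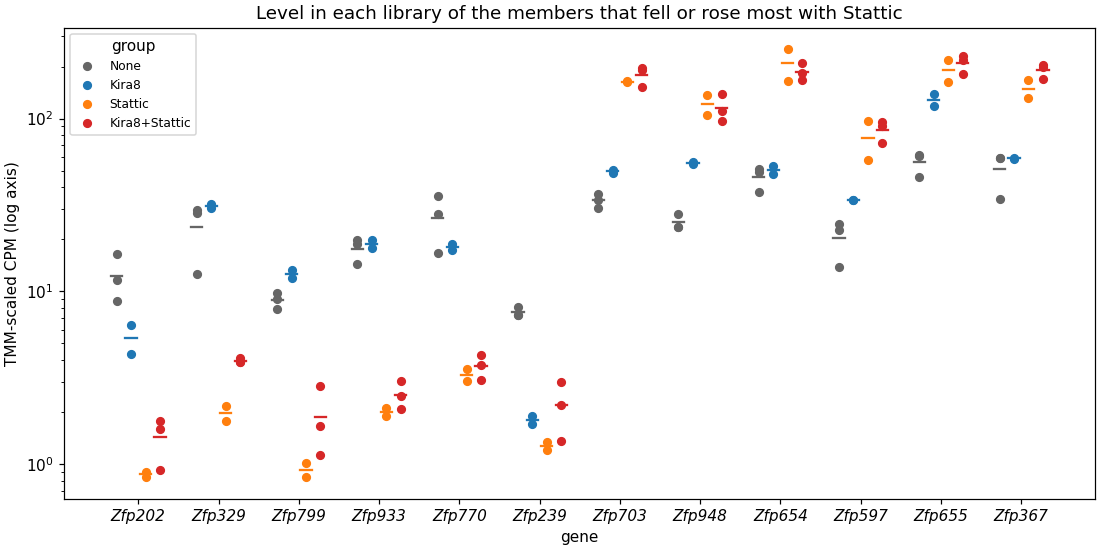
Level of the 6 members with the largest falls and 6 with large rises under Stattic in each of 10 libraries, as TMM-scaled CPM on a log axis; points are libraries, bars are group means and colours are groups. The Stattic and Kira8+Stattic points lie below all None points for Zfp202 to Zfp239 and above them for Zfp703 to Zfp367.

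Members with a KRAB match were lower with Stattic in 54 of 91 cases and higher in 13, with a median log2 change of -0.83. Members without a match were lower in 42 of 105 and higher in 20, with a median of -0.32. By finger number, 57 of the 100 proteins with 10 or more fingers were lower and 16 higher (median -0.79), 26 of 63 with 5 to 9 were lower and 8 higher (median -0.48), and 12 of 30 with 1 to 4 were lower and 7 higher (median -0.28). Among proteins with 10 or more fingers, those with a KRAB match were lower in 43 of 67 and those without in 14 of 33. These are counts of genes that share sequence and position, and the difference between the classes was not tested. Of the 21 members that share sequence with other genes 15 were lower and 2 higher, and the other 175 had 81 lower and 31 higher.

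Zfp809, the KRAB protein that recognises the primer binding site of murine leukaemia viruses and silences them, was in the group that fell. It had 18.8, 31.3 and 28.9 CPM in None and 4.81 and 5.22 CPM with Stattic, a 5.25-fold fall (log2 -2.39 ± 0.25, edgeR adjusted p = 2.44e-05). The proteins through which KRAB members act were taken from a list of 20 co-repressor genes that includes Zfp809, itself a member that fell. With Stattic 12 were lower, 2 were higher and 6 were not called (median -0.82), beside 35.8% lower, 20.0% higher and a median of -0.23 among the equally abundant genes. Setdb1, the H3K9 methyltransferase, averaged 127 CPM in None and 40.1 with Stattic (log2 -1.67 ± 0.22), the heterochromatin protein gene Cbx5 243 and 67.1 CPM (log2 -1.86 ± 0.29), and Pphln1, a subunit of the HUSH silencing complex, 93.2 and 29.7 CPM (log2 -1.65 ± 0.18). Chd4, Hdac2, Cbx1, Fam208a, Smarcad1, Dnmt1, Uhrf1 and Rif1 were the other 8 genes called lower besides Zfp809. Of these calls, that of Fam208a was lost without None replicate 2, None replicate 3 or Stattic replicate 1 (highest adjusted p = 0.17) and that of Rif1 without Stattic replicate 1 (adjusted p = 0.0576). Trim28 itself averaged 417 CPM in None and 353 with Stattic and was not called (log2 -0.24 ± 0.16, adjusted p = 0.248). Resf1, a Setdb1 partner, rose from 92.0 to 396 CPM (log2 2.10 ± 0.25), and Atf7ip, which stabilises Setdb1, from 63.4 to 161 CPM (log2 1.34 ± 0.20). With Kira8 alone Resf1 was higher (log2 1.58 ± 0.25), and Cbx3, Hdac2 and Pphln1 were lower. The Kira8 calls of Cbx3, Hdac2 and Pphln1 were lost when a Kira8 library was left out (highest adjusted p = 0.0537, 0.0922 and 0.0596).

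Clusters were taken as runs of Zfp genes no more than 500 kb apart with at least 4 members, a rule set after the files were seen. They differed in how their members moved with Stattic. On chromosome 13, between 67038596 and 67827002, 9 members with a KRAB match lie among 19 Zfp genes, and 8 of the 9 were lower with Stattic (median log2 -1.71), the exception being Zfp87 (log2 -0.44, adjusted p = 0.0517). Zfp595 in this cluster had 12.3, 19.5 and 17.2 CPM in None and 2.76 and 3.33 CPM with Stattic. Zfp738 had 18.7, 24.3 and 27.0 CPM in None and 4.79 and 4.07 CPM with Stattic. Both genes' groups were apart, as for every member called with Stattic. Zfp738 overlaps antisense genes. On chromosome 7, between 29768552 and 30169750, 7 of 11 members were lower and none higher, and between 27731389 and 28014115 all 4 were lower. All 4 members on chromosome 4 between 145510759 and 147848366, and 6 of 7 on chromosome 17 between 32765496 and 33631779, were lower as well. The other cluster on chromosome 17, between 21008903 and 23599487, held members of both kinds: 5 of 13 were higher and 5 lower. The neighbours Zfp54, Zfp51, Zfp52 and Zfp948 were higher there (log2 1.16, 1.10, 1.26 and 2.27), while Zfp53 between them was not called, and Zfp213 at the far end was lower (log2 -2.27). In the other 7 of the 13 clusters 0 to 5 members were lower and 0 to 2 higher. Neighbouring genes are not independent of each other.

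**Figure D3:**
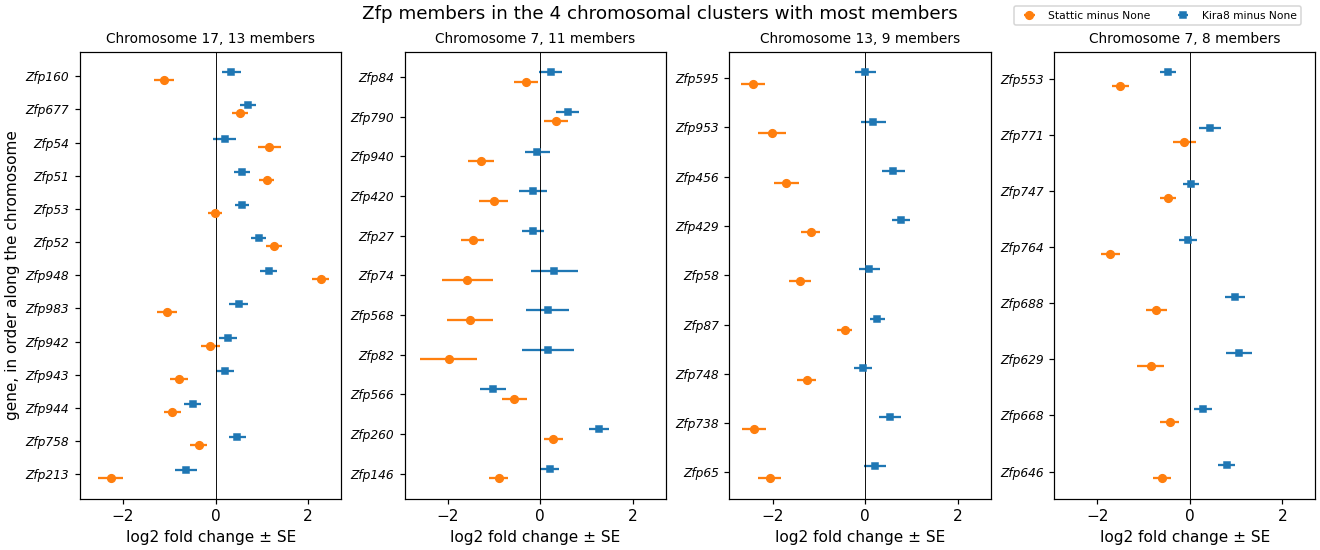
Log2 fold change with its SE (x axis) for each member of the 4 clusters with most members, in chromosomal order (y axis), with Stattic (orange circles) and with Kira8 (blue squares) against None. On chromosome 13 every Stattic point is left of 0 and the Kira8 points stand between -0.05 and 0.78, while on chromosome 17 Stattic points lie on both sides.

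Members whose products work away from DNA or at known promoters were described by role. Of those that act on ribosomes, Zfp598, the ubiquitin ligase that senses collided ribosomes, had 91.2, 101 and 87.8 CPM in None and 53.5 and 41.0 CPM with Stattic (log2 -0.98 ± 0.17, adjusted p = 0.000662). Zfp622, a maturation factor of the large ribosomal subunit, moved the other way, from 64.7, 66.4 and 61.4 CPM to 126 and 145 CPM (log2 1.08 ± 0.17, adjusted p = 0.000413). Zfp593, likewise a large-subunit biogenesis factor, had 33.9, 35.4 and 30.4 CPM in None and 24.7 and 18.4 CPM with Stattic (log2 -0.62 ± 0.18), a call that was lost without Stattic replicate 3 (adjusted p = 0.152). In each of the 3 genes the groups did not overlap, as for every member called with Stattic.

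Among RNA-binding members, Zfp326, part of a complex that links transcription to splicing, had 26.2, 28.7 and 27.7 CPM in None and 63.6 and 76.4 CPM with Stattic (log2 1.35 ± 0.21). Zfp106 and Zfp638 were lower (log2 -0.88 ± 0.25 and -0.89 ± 0.22), and both lost the call when a Stattic library was left out (highest adjusted p = 0.0795 and 0.0605). The spindle factor gene Zfp207 was not called in any contrast with None (log2 -0.10 with Kira8, -0.21 with Stattic and -0.27 with both). Among chromatin and DNA-binding members, Zfp217, a CoREST-associated oncoprotein gene, and Zfp131 were higher with Stattic (log2 1.20 ± 0.23 and 1.18 ± 0.23), and the imprinting regulator gene Zfp445 was lower (log2 -1.22 ± 0.27), as was Zfp451, a SUMO ligase gene (log2 -0.90 ± 0.21, lost without Stattic replicate 1, adjusted p = 0.0574). Zfp281, a pluripotency factor, was called higher with Stattic (log2 0.69 ± 0.25, adjusted p = 0.0449) but not in 7 of the 10 fits that left out 1 library, with an adjusted p of up to 0.454. Zfp143, a promoter-binding activator, Zfp148, Zfp384, Zfp830, Zfp292, Zfp664 and Zfp410, which controls Chd4, were not called with Stattic (log2 between -0.34 and 0.30). Without None replicate 1, Zfp148 and Zfp664 were called lower (adjusted p = 0.0387 and 0.0182). Zfp91, a ubiquitin ligase of non-canonical NF-kappaB signalling, had 145, 208 and 216 CPM in None and 172 and 183 CPM with Stattic and was not called (log2 -0.09 ± 0.17). Neither was Zfp335, a chromatin factor needed for T cell development (log2 -0.52 ± 0.20, adjusted p = 0.0588, and 0.012 without None replicate 1), or Zfp318, a splicing regulator known from B cells (log2 0.08 ± 0.23).

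With Kira8 alone, 42 members were higher than in None, 7 were lower and 147 were not called. Of all tested genes 9.70% were higher and 9.59% lower, and of equally abundant protein-coding genes 15.4% and 18.3%. The members' median log2 change was 0.28, beside 0 for all genes and -0.03 for equally abundant ones, and 143 of 196 values were above 0. So were 10478 of the 21239 tested genes and 4301 of the 8989 equally abundant ones. Of the 42 rises 7 reached 2-fold, a share that was not counted for other genes. With 2 Kira8 libraries the count depended on each, falling to 12 higher without replicate 1 and to 11 without replicate 3, with a median of 0.26 and 0.28. Without None replicate 1 the median was 0.19 and the members lower with Kira8 numbered 12 in place of 7, and without Kira8 replicate 1 they numbered 4.

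The largest rise with Kira8 was that of Zfp169, a KRAB member with 17 fingers on chromosome 13, with 5.31, 9.29 and 12.2 CPM in None and 25.1 and 24.7 CPM with Kira8 (log2 1.48 ± 0.32, edgeR adjusted p = 0.00665). The Kira8 libraries agreed closely and lay above all None libraries, which spread widely. Zfp260 (chr7:30094777-30107622, plus strand) had 28.7, 33.3 and 43.1 CPM in None and 85.8 and 83.1 CPM with Kira8, a 2.41-fold rise (log2 1.27 ± 0.21, adjusted p = 0.00147). Zfp655 had 46.0, 61.5 and 60.9 CPM in None and 119 and 139 CPM with Kira8 (log2 1.20 ± 0.19). Zfp948 rose from 23.5, 28.2 and 23.5 CPM to 56.0 and 54.7 CPM (log2 1.14 ± 0.18), so that it lay between None and Stattic in all its Kira8 libraries. Zfp629, Zfp395, Zfp871 and Zfp212 followed with log2 rises of 1.06, 1.06, 1.02 and 0.98. The calls of Zfp629, Zfp395 and Zfp871 were lost without either Kira8 library, and that of Zfp629 also without None replicate 2 (highest adjusted p = 0.128, 0.0838 and 0.132). Of the role genes, Zfp281, Zfp318, Zfp703 and Zfp664 were higher (log2 0.90, 0.89, 0.56 and 0.50), and each of these calls was lost when either Kira8 library was left out, the last 2 also without other libraries.

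The 7 members lower with Kira8 were Zfp296, Zfp239, Zfp593, Zfp202, Zfp566, Zfp706 and Zfp422. Zfp296 (chr7:19577287-19580656, plus strand), known as a partner of pluripotency factors in embryonic stem cells, had 8.68, 8.08 and 6.55 CPM in None and 1.74 and 1.14 CPM with Kira8, a 5.39-fold fall (log2 -2.43 ± 0.32, edgeR adjusted p = 0.00043). With Stattic it had 7.95 and 6.65 CPM, within the range of its None libraries. Zfp239 had 7.34, 8.14 and 7.27 CPM in None and 1.89 and 1.70 CPM with Kira8 (log2 -2.08 ± 0.35). Zfp593 had 11.9 and 13.0 CPM with Kira8, below its 3 None libraries and both Stattic libraries (log2 -1.42 ± 0.18). Zfp706, which restrains Klf4 in stem cells, had 114, 109 and 113 CPM in None and 61.2 and 57.4 CPM with Kira8 (log2 -0.92 ± 0.15). The calls of Zfp296, Zfp239, Zfp593 and Zfp706 held when any 1 library was left out. Zfp202 lost its call without Kira8 replicate 1, Kira8 replicate 3, None replicate 2 or None replicate 3, Zfp422 without either Kira8 library or None replicate 2, and Zfp566 without Kira8 replicate 1 (highest adjusted p = 0.253, 0.159 and 0.243). Zfp296 and Zfp593 overlap antisense genes, and so does Zfp706.

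**Figure D4:**
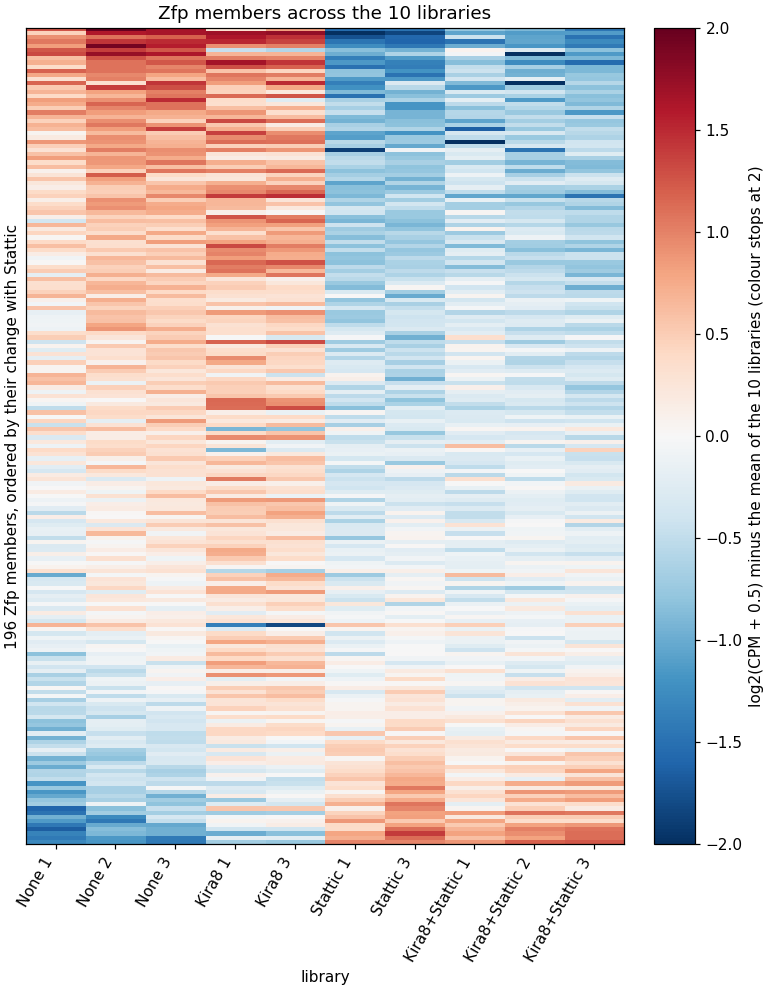
Each row is 1 of the 196 members and each column 1 of 10 libraries, with colour for log2(CPM + 0.5) minus the member's mean over the 10 libraries; rows are ordered by the change with Stattic. Many rows that are blue in the 2 Stattic and 3 Kira8+Stattic columns are red with Kira8. Each row is centred on all 10 libraries, so a member low in the Stattic columns tends to be red in None too. Red with Kira8 is therefore not a rise against None. The median log2 changes against None were -0.60 with Stattic and 0.28 with Kira8.

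With both inhibitors 97 members were lower than in None and 31 higher, with 68 not called, while 20.0% of all tested genes were lower and 20.8% higher and 37.7% and 20.5% of the equally abundant. The members' median was -0.50, beside 0.09 for all genes and -0.22 for equally abundant genes. This contrast shares the None libraries with the other 2, so the values stand side by side only. Zfp202 had 1.78, 1.60 and 0.930 CPM with both (log2 -3.11 ± 0.33). Zfp703 had 153, 190 and 196 CPM, the highest of all its libraries being in this group (log2 2.42 ± 0.15). Zfp142, with the most fingers, was also among the 8 largest rises (log2 1.49 ± 0.23), and Zfp82 and Zfp738 among the 8 largest falls (log2 -2.39 ± 0.53 and -2.34 ± 0.23). For Zfp82, 94.4% of 50-base stretches occur in another gene, so its count is uncertain.

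Adding Stattic to Kira8 gave 109 members lower and 16 higher than with Kira8 alone and 71 not called. This contrast does not compare against the counts that chose the members, although scaling and the estimate of spread were shared. Of all genes tested 16.0% were lower and 14.7% higher, and of the equally abundant 30.3% and 17.0%. The median log2 difference was -0.73, beside 0.12 for all genes and -0.18 for the equally abundant, and 159 of 196 values were below 0. So were 9660 of the 21239 tested genes and 5291 of the 8989 equally abundant ones. KRAB members were lower in 54 of 91 (59.3%) and the others in 55 of 105 (52.4%). The 5 members with the largest falls were Zfp329 (log2 -2.98 ± 0.30), Zfp933, Zfp738, Zfp799 and Zfp626. Zfp626, a KRAB member on chromosome 7, had 33.7 and 35.7 CPM with Kira8 and 5.82, 5.80 and 4.18 CPM with both (log2 -2.72 ± 0.23, edgeR adjusted p = 1.73e-05). The 5 with the largest rises were Zfp296, Zfp654, Zfp703, Zfp367 and Zfp597. Zfp296 had 1.74 and 1.14 CPM with Kira8 and 7.50, 4.58 and 7.48 CPM with both, with the groups apart (log2 2.18 ± 0.32, adjusted p = 0.000425). Without Kira8 replicate 1 the members called higher numbered 9 in place of 16.

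Adding Kira8 to Stattic gave no called member in the edgeR fit, while 2 genes of all 21239 tested were higher (0.00942%) and 1 was lower (0.00471%). Of the equally abundant genes 0.00% were higher and 0.0111% lower. At an unadjusted p under 0.05 there were 20 members, 14 of them higher, and DESeq2 and limma voom also called 0. The log2 differences ran from -0.75 (Zfp719) to 1.01 (Zfp329 ± 0.32), with the middle of the members between -0.09 and 0.24 and a median of 0.06. With 2 Stattic and 3 combined libraries, differences of this size could not be told from the spread between libraries, which does not show that the groups were alike.

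The interaction, the Kira8 change with Stattic minus the Kira8 change without it, was called for 19 members: positive for 5 and negative for 14. Of all tested genes 4.55% were positive and 3.97% negative, and of equally abundant genes 9.07% and 6.51%. The members' median was -0.16, beside 0.01 for all genes. Without Kira8 replicate 1, or without Kira8 replicate 3, edgeR called 0 members negative (33 and 36 at an unadjusted p under 0.05) and 3 or 2 positive. Without Stattic replicate 3 there were 3 positive and 2 negative calls, without Kira8+Stattic replicate 2 there were 3 and 7, and without Kira8+Stattic replicate 1 there were 7 negative.

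The positive interactions were those of Zfp239, Zfp296, Zfp202, Zfp593 and Zfp706. The interaction contains the Kira8 change against None with its sign turned, so its direction is not independent of that change. Zfp593 had 11.9 and 13.0 CPM with Kira8 alone but 23.5, 23.9 and 26.5 CPM with both, within or above its range of 18.4 to 24.7 with Stattic (interaction log2 1.61 ± 0.25, edgeR adjusted p = 0.00415). Zfp296, given above in each group, was called too (interaction log2 2.27 ± 0.43, adjusted p = 0.00926). Zfp239 was low in every treated group, with 1.35 and 1.21 CPM with Stattic and 2.98, 2.21 and 1.37 CPM with both (interaction log2 2.84 ± 0.49, adjusted p = 0.00645). The 5 largest negative interactions were those of Zfp169, Zfp626, Zfp260, Zfp948 and Zfp277. Zfp260 had 85.8 and 83.1 CPM with Kira8, 38.1 and 46.9 CPM with Stattic and 42.6, 32.6 and 49.1 CPM with both (interaction log2 -1.31 ± 0.30, adjusted p = 0.0202). Its Kira8 libraries stood above the 8 others, which overlapped. Its interaction call, and those of Zfp948 and Zfp169, were lost without either Kira8 library and without Stattic replicate 3, and that of Zfp169 also without Kira8+Stattic replicate 1 or 3.

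**Figure D5:**
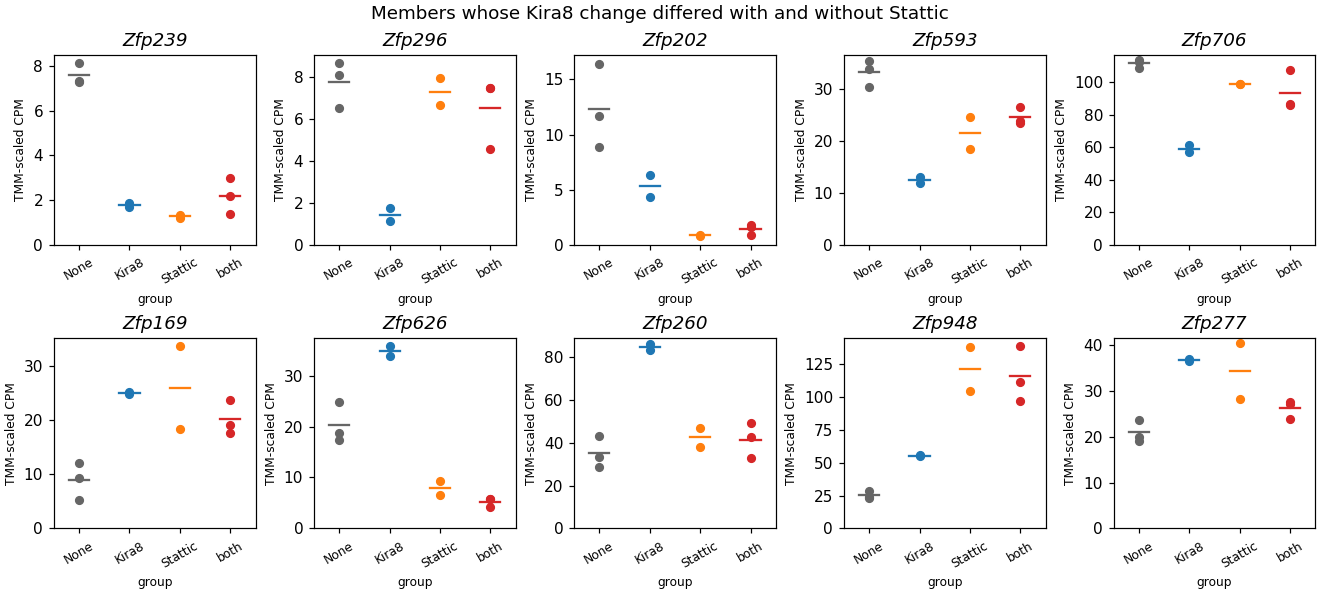
TMM-scaled CPM (y axis, from 0) by group (x axis) for the 10 members with the largest interactions called; points are libraries and bars are group means. In the top row the Kira8 points are below None and Kira8 added nothing called to Stattic; in the bottom row Zfp260 is high with Kira8 alone, at 83.1 and 85.8 CPM.

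When all 12 libraries were fitted, edgeR called no member in any of the 6 comparisons. Members at an unadjusted p under 0.05 numbered 3 with Kira8, 24 with Stattic, 23 with both, 26 for both against Kira8, 2 for both against Stattic and 5 for the interaction. The common dispersion was 1.01 in that fit and 0.143 in the fit of 10. The median with Stattic was -0.70 and that with Kira8 0.04. DESeq2 on the 12 libraries called 10 members lower and 4 higher with Stattic, and limma voom with library quality weights, which gave the 2 libraries weights of 0.0763 and 0.0503, called 85 lower and 22 higher. Among the 3 None libraries, replicate 1 was lowest for 135 of the 196 members (68.9%), beside 40.9% of all tested genes and 45.6% of equally abundant genes. Summed over members, None held 5798, 7555 and 7619 CPM, Kira8 8599 and 8738, Stattic 6199 and 7179, and both 6592, 6916 and 7042.

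Position just upstream of the genes was examined because STAT3 is the target of Stattic. The motif TTCNNNGAA, the letters that STAT proteins are known to prefer and which read the same on both strands, was searched in RefSeq promoters of build GRCm38.p6 from 250 bases before to 50 after the start, with 162 members matched. It was present for 26 of 162 members (16.0%), for 17 of 82 lower with Stattic (20.7%), for 4 of 26 higher (15.4%), for 5 of 54 not called (9.26%) and for 2288 of 27025 promoters in all (8.47%). The median GC content of the promoters was 54.2% for members lower with Stattic, 56% for those higher, 58.7% for those not called and 52.7% in all. Its part in these shares was not tested. Of the members that changed most with Stattic, Zfp202, Zfp329, Zfp799 and Zfp948 had no match. The match is a description of letters and not a binding site, and no binding was measured. Zfp260, with the motif in capitals starting 33 bases before the RefSeq start, and Zfp202, without a match, are shown as the genes of the Kira8 and Stattic results above. Zfp260 was not called with Stattic. Its stretch lies inside the gene span that GENCODE gives, which begins at 30094777, and so is upstream of the RefSeq start only.
Zfp260, chr7:30094826-30095075, plus strand: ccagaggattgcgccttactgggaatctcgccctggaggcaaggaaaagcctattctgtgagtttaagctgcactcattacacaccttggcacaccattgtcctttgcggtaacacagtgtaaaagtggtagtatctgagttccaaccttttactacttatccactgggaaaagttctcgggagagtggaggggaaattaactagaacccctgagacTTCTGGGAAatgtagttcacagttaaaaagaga
Zfp202, chr9:40192066-40192315, plus strand: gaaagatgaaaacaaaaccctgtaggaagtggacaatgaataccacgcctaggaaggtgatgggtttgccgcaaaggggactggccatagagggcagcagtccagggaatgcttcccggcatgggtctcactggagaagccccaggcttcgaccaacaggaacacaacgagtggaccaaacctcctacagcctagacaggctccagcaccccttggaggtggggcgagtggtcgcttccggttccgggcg

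Zfp mRNAs are known as short-lived, and ATTTA, a pentamer of unstable mRNAs, was counted in their 3 prime UTRs. It occurred in 81.4% of 188 members with a UTR of at least 100 bases, at a median of 1.73 per kb, and in 70.7% of equally abundant genes, at 1.41 per kb. Across those 188 members the Spearman correlation of its density with the Stattic change was 0.00, and no decay was measured. Spearman correlations of other features with the Stattic change across members were -0.18 for the finger number, 0.21 for coding GC content and 0.24 for the None level per kb (n = 196). Members share sequence and position, so these are descriptions.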

How the data were processed

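RNA sequencing of total RNA from 12 libraries was analysed from a table of raw read counts per gene that the authors deposited. Per the labels' protocols RNA was extracted with Trizol and inhibitors acted for 4 h, and per the submitters' processing notes the build was mm10. Aligner, counter, annotation and strand setting were not given in the sources used here. Gene types, positions and transcripts came from GENCODE M21, which matched 55141 of 55401 identifiers.

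Counts were filtered with filterByExpr, scaled by TMM and fitted with edgeR 4.0.16 in R 4.3.3, with a coefficient per group, over 21239 genes. A call is a Benjamini-Hochberg adjusted p under 0.05. CPM are TMM-scaled, and errors of log2 changes are standard errors. Comparisons numbered 6. DESeq2 1.42.0 and limma 3.58.1 were alternatives. On simulated counts for Stattic minus None over 21239 genes the fit recovered 53% of 2-fold and 97% of 4-fold changes, with 7 false calls. Only 100 genes were changed at each fold there, drawn from genes above a minimum level. Far more genes were called in the data, so these rates may not hold for them.

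The members, lists and the choice of 10 libraries were made with earlier results of these data known. The libraries left out stand apart in measures that do not use the members. Named members were the 10 highest per kb in None, the 8 largest called changes each way against None without overlapping libraries, the 5 largest each way in other comparisons, the 3 on each side of the count minimum, a list of genes with known roles, and co-repressor genes. The patterns for fingers and KRAB boxes, the cluster rule, the 20% limit on shared stretches, the promoter motif and the sequences shown were set after the files were seen. Kira8 and Stattic had 2 libraries each in the fit. The lowest member count in any of the 10 libraries was 12, and 10 members had under 100 counts in at least 1 of them, where counting error adds to the spread.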

Additional observations from a re-analysis of the deposited data

Results flagged for a closer look

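The Kira8 change of 19 members differed with and without Stattic by the interaction test in edgeR, at an adjusted p under 0.05, and the 5 largest differences each way are given here. The 5 positive and 14 negative calls were 2.55% and 7.14% of the members. Of all tested genes 4.55% were positive and 3.97% negative, and of equally abundant genes 9.07% and 6.51%. The values by gene are log2 differences of the Kira8 change with Stattic from that without. They were positive for Zfp239 (2.84), Zfp296 (2.27), Zfp202 (1.91), Zfp593 (1.61) and Zfp706 (0.83). They were negative for Zfp169 (-1.85), Zfp626 (-1.37), Zfp260 (-1.31), Zfp948 (-1.21) and Zfp277 (-1.20). The calls of Zfp239 and Zfp593 held when any 1 of the 10 libraries was left out, and that of Zfp296 was lost without Kira8 replicate 3 (adjusted p = 0.0588). That of Zfp202 held in 2 of 10 such fits, that of Zfp706 in 4 and that of Zfp169 in 5. That of Zfp626 held in 6, and those of Zfp260, Zfp948 and Zfp277 in 7 each. Of these 10 members 0 were called by edgeR in the fit of all 12 libraries.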

How the results depend on the processing

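Counts of members called are given as higher then lower, and causes of the shifts were not tested. With all 12 libraries edgeR called 0 in every comparison. DESeq2 on the 12 libraries, chosen after seeing the data, called 3 and 0 with Kira8, 4 and 10 with Stattic, 5 and 7 with both, 1 and 12 for both against Kira8, and 0 and 2 for the interaction. Limma voom with quality weights on the 12, also chosen then, called 12 lower with Kira8 and 3 and 8 for the interaction. Leaving out members that share sequence, the third added alternative, moved no count by over 1.5 times. In the 10 libraries, a test against a 1.5-fold change gave 4 and 3 with Kira8, 20 and 59 with Stattic, 16 and 55 with both, 9 and 56 for both against Kira8, and 3 and 0 for the interaction. DESeq2 gave 15 lower with Kira8 and 10 and 28 for the interaction. Limma voom, and a fit of only the groups compared, each gave 12 lower with Kira8. Members chosen by their mean over the 10 libraries (180, of which 171 shared) gave 3 lower with Kira8 and 2 positive interactions.

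Leaving out 1 library at a time gave 11 to 42 higher and 4 to 12 lower with Kira8, 24 to 33 and 73 to 102 with Stattic, 26 to 32 and 81 to 104 with both, 9 to 17 and 74 to 117 for both against Kira8, 0 and 0 for both against Stattic, and 2 to 7 and 0 to 19 for the interaction. Where this left 1 Kira8 or Stattic library, it was assumed to vary like the other groups. Of 132 calls of single genes tried, 96 held in all such fits, among them 35 of 43 with Stattic, 11 of 25 with Kira8 and 2 of 10 interactions. In the fit of 12 libraries Zfp239 changed sign, to 1.39 with Kira8, 0.54 with Stattic and -3.75 for the interaction, and so did Fam208a with Stattic (0.24 in edgeR, 0.69 in DESeq2).

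The replicate numbers were tried as a block. Deviations of libraries with the same number correlated at 0.017 to 0.218, not all over 0.1. Those of libraries with different numbers correlated at -0.151 to 0.074. Deviations cancel out within a group, so the ranges are tied to each other. The numbers are thus not shown to pair libraries, and pairing is not excluded. The replicate block gave 50 and 11 with Kira8, 34 and 95 with Stattic, 33 and 97 with both, 17 and 112 for both against Kira8, and 6 and 16 for the interaction.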

Other observations

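Zfp genes under the count minimum, of which 147 of 168 were tested, had 15 higher and 44 lower with Stattic (median log2 -0.99) and 11 higher and 2 lower with Kira8. Other zinc finger families were counted by name. Of 35 Zbtb genes, which pair fingers with a BTB domain, 11 were higher and 15 lower with Stattic, with Zbtb2 rising from 20.3 to 147 CPM (log2 2.85 ± 0.22) and Zbtb38 from 17.8 to 82.3 CPM (log2 2.21 ± 0.22). Of 18 Zscan and Zkscan genes 4 were higher and 4 lower, with Zkscan8 falling from 31.4 to 2.76 CPM (log2 -3.51 ± 0.27) and Zkscan14 rising from 6.89 to 35.8 CPM. Of 5 Ikzf genes, the Ikaros family of lymphocyte regulators, 3 were lower and 0 higher, with Ikzf4 falling from 50.4 to 7.59 CPM (log2 -2.73 ± 0.30) and Ikzf2 from 19.9 to 10.1 CPM. Of 17 Zc3h genes 3 were higher and 6 lower, among them Zc3h18 (log2 -1.05 ± 0.16) and Zc3h8 (log2 -1.76 ± 0.28). Of 21 Zfp genes with a letter suffix 2 were higher and 11 lower, with Zfp729a falling from 25.2 to 7.05 CPM and Zfp874a rising from 11.0 to 41.7 CPM. Zfp36, the mRNA decay factor tristetraprolin, which is not a member, rose from 75.0 to 372 CPM with Stattic (log2 2.31 ± 0.22). These values come from the fit of 10 libraries by edgeR, with the shares of all tested genes given above for the same comparisons.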
